A study of Mus musculus with 24 samples.

Results

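Imprinted genes are transcribed mainly from the copy inherited from the mother or from the father, the other copy being held silent by DNA methylation set in the germ line and by long noncoding RNAs. They lie in clusters that share an imprinting control region, and many of them set the growth of the embryo and placenta, with low RNA in most adult tissues. The RNA of 45 imprinted genes, named by symbol and joined to the array through RefSeq accessions, was followed in 7 mouse tumour lines. All 45 had at least 1 probe, among 45622 genes and unnamed transcripts on the array. They had 80 probes in all, and each gene was read from its brightest probe.

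The 5 melanoma lines carry GFP and descend from the B16-F1 melanoma. B16-M is the parental line, B16-D was isolated from a syngeneic mouse in which tumour cells had stayed dormant under immunotherapy, and B16-D-733, B16-D-735 and B16-D-739 are second-generation dormant lines recovered from the brain. M0-p20 is read here as DA1-3b, the parental line of a myeloid leukemia, from the study's methods since its label does not say so. J365-p20 is read in the same way as DA1-3b/D365, the dormant line of that model, which was likewise based on immunotherapy of syngeneic mice. Every line is a single isolate. The dormant lines were amplified in culture after they left the mouse, so the arrays show proliferating cells and not cells at rest in a host. No such passage through a mouse is described for the parental lines, and it cannot be told apart from dormancy. The legends of the study's expression heatmaps give 3 repeats of each experiment. Nothing states that arrays of a line came from separate cultures, and p-values measure only the spread between arrays, which may be technical. The groups hold 3 arrays of B16-M, 4 of B16-D, 4 of B16-D-733, 3 of B16-D-735, 3 of B16-D-739, 4 of M0-p20 and 3 of J365-p20. B16-D replicate 2 stood apart, with 90.3% of its spots called above background by the scanner software where the remaining 23 arrays had 46.0% to 55.8%, and it was left out of every value unless it is named. All 7 melanocyte markers examined were detected in the 5 melanoma lines, and all 7 leukocyte markers in both leukemia lines. The leukemia lines also held melanocyte markers, 4 of 7 in M0-p20 (*Mitf*, *Sox10*, *Pmel* and *Tyr*) and 3 of 7 in J365-p20 (*Mitf*, *Sox10* and *Tyr*). The melanoma lines held 1 or 2 leukocyte markers (*Coro1a* and *Itgb2*), while *Ptprc* and *Spi1* were detected in none of them.

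A level is the log2 of the probe's signal relative to the 75th percentile of its array, so that 0 is a signal at that percentile. Levels were compared between lines for the same probe and never between genes. Detection in a line meant that the scanner software called the gene's probe above background on 50% or more of that line's arrays. The arrays do not tell the maternal from the paternal copy, and in such bulk samples fewer cells that make an RNA and less RNA per cell cannot be told apart.

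Fewer of the imprinted genes were detected than of genes at large. B16-M, B16-D, B16-D-733 and B16-D-739 had 19 of 45 detected (42.2%), B16-D-735 had 20 (44.4%), M0-p20 had 18 (40%) and J365-p20 had 16 (35.6%), while between 56.5% and 59.5% of the 22907 gene symbols were detected in each line. No line had RNA above this limit for 19 of the 45 genes (42.2%, against 33.6% of all symbols). These were *H19*, *Igf2*, *Kcnq1*, *Rtl1*, *Dio3*, *Peg3*, *Zim1*, *Usp29*, *Ndn*, *Magel2*, *Snrpn*, *Asb4*, *Klf14*, *Nnat*, *Nap1l5*, *Grb10*, *Zdbf2*, *Gatm* and *Slc38a4*. Both genes of the H19-Igf2 domain, which makes the growth factor IGF2 from the paternal copy and the noncoding RNA H19 from the maternal copy, belonged to this group, as did all 3 genes of the Peg3 domain. *H19* lay between -7.44 and -6.14 on the 23 arrays, and *Igf2* between -7.35 and -4.46. A gene called not detected may still be transcribed below the reach of its probe.

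The 11 genes detected in all 7 lines (24.4%, against 48.9% of all symbols) included both noncoding RNAs that silence their neighbours in cis, *Kcnq1ot1* and *Airn*, and *Gnas*, *Ube3a*, *Igf2r*, *Tssc4*, *Copg2*, *Blcap*, *Mcts2*, *Commd1* and *Impact*. Detection in all melanoma lines and in neither leukemia line was found for 8 genes (17.8%, against 5.53% of all symbols), namely *Plagl1*, *Mest*, *Phlda2*, *Slc22a18*, *Peg10*, *Sgce*, *Ppp1r9a* and *Inpp5f*. This holds for the brightest probe, since second probes of *Plagl1* and *Slc22a18* were detected in both leukemia lines and that of *Peg10* in M0-p20, and over any probe 5 of the 8 remained. The reverse held for 4 genes (8.89%, against 3.84%), namely *Peg12*, *Zrsr1*, *Dlk1* and *Rasgrf1*. Of the remaining 3, *Ascl2* and *Meg3* were detected in M0-p20 alone, and *Calcr*, the calcitonin receptor, in B16-D-735 and both leukemia lines. *Calcr* was dim throughout, above the background on 2 of the 3 B16-D-735 arrays and 2 of the 4 M0-p20 arrays. Each gene was also grouped by the copy assigned to it as active, which was not measured in these lines. Of 19 genes assigned to the maternal and 25 to the paternal copy, 10 and 9 were detected in at least 1 melanoma line, and 9 and 8 in at least 1 leukemia line. Neighbours in a domain could differ. In the Kcnq1 domain, *Kcnq1* itself was in no line, *Phlda2* and *Slc22a18* were in the melanoma lines and *Kcnq1ot1* and *Tssc4* were everywhere.

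**Figure D1:**
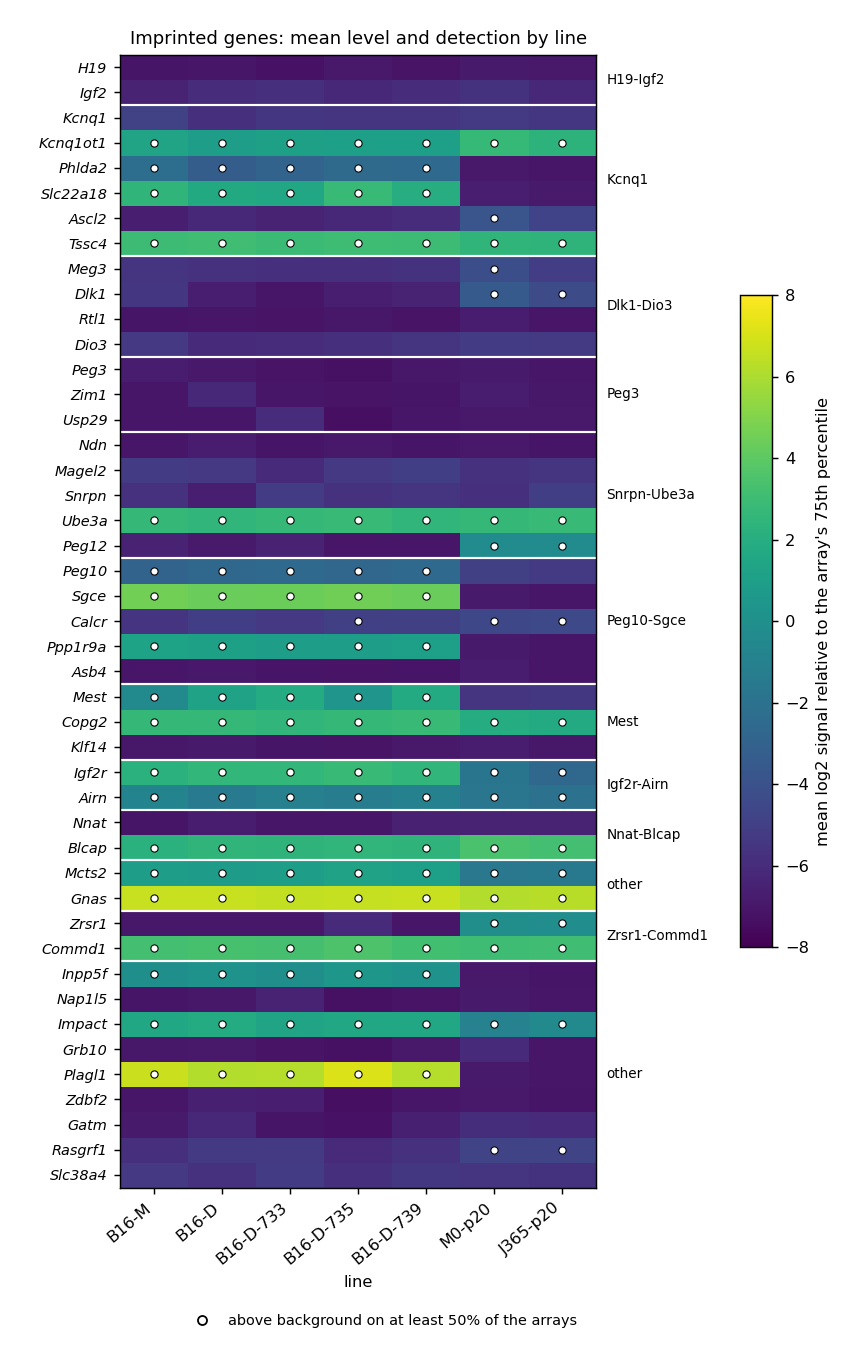
Mean level of the 45 imprinted genes (rows, grouped by domain as written on the right) in the 7 lines (columns), as log2 signal relative to the array's 75th percentile, with a white circle where the gene was detected; B16-D is shown without replicate 2. The 8 genes whose brightest probe has circles in the 5 melanoma columns alone and the 4 with circles in the 2 leukemia columns alone stand out, and the H19-Igf2 and Peg3 domains have no circle.

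The start regions of 4 genes are shown, *Plagl1* and *Mest* because they differed between the dormant melanoma lines, and *Peg12* and *Zrsr1* because they had the largest bounds in favour of the leukemia. Each is the stretch of 250 bases before a RefSeq start in build GRCm38.p6, written 5′ to 3′ on the gene's strand. Capitals mark TGCCGC, the hexamer that the zinc finger protein ZFP57 binds at imprinting control regions when it is methylated, or its reverse complement GCGGCA. The *Plagl1* window is chr10:13090582-13090831 on the plus strand, that of *Mest* chr6:30737800-30738049 on the plus strand, that of *Peg12* chr7:62464511-62464760 on the minus strand, and that of *Zrsr1* chr11:22971755-22972004 on the plus strand.
Plagl1: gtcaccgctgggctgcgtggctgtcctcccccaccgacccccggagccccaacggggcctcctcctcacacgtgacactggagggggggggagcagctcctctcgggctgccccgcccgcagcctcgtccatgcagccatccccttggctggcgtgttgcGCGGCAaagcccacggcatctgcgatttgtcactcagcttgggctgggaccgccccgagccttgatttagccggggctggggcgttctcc
Mest: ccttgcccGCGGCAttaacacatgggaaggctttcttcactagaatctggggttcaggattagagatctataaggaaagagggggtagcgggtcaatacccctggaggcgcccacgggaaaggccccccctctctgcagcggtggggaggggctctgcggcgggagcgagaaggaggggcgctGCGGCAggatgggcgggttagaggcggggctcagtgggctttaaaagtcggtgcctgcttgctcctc
Peg12: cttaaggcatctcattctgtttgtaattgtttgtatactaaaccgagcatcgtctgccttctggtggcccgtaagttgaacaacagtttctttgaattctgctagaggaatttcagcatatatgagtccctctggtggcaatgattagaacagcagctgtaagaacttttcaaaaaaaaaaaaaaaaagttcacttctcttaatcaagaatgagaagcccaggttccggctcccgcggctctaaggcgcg
Zrsr1: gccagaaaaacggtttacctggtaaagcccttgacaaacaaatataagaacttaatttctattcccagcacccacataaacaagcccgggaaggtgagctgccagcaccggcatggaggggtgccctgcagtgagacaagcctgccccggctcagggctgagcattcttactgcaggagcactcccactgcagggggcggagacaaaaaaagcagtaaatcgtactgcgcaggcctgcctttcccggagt

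The *Mest* window held the hexamer 2 times and that of *Plagl1* 1 time, while those of *Peg12* and *Zrsr1* did not hold these letters. Over the imprinted genes with a window, 9 of 38 (23.7%) held the hexamer on either strand in at least 1 window, against 9.84% of all 27025 genes with a window. These were *Calcr*, *Copg2*, *Mcts2*, *Meg3*, *Mest*, *Nap1l5*, *Plagl1*, *Zdbf2* and *Zim1*, of which 3 were in the group detected nowhere. The median number of CG dinucleotides was 11.5 in the 58 windows of imprinted genes and 6 in all 32851 windows. It was 19 in the *Plagl1* window, 14 in that of *Mest* and 8 each in those of *Peg12* and *Zrsr1*. The windows shown are 1 for each gene, and of the 3 windows of *Mest* the one at chr6:30733256-30733505 held these letters 0 times, with 7 CG dinucleotides. A match is a description of the letters, and methylation was not analysed here.

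To ask which imprinted genes differed between the dormant melanoma lines and their parental line, levels were compared with limma over 16 melanoma arrays, with Benjamini-Hochberg adjustment over 24310 genes and a threshold of 0.05. The filter on dim probes left 22 of the 45 imprinted genes. In B16-D, 3 of these 22 passed (13.6%, against 3.6% of all genes tested), *Mest* higher and *Phlda2* and *Plagl1* lower. In B16-D-733, the same 3 genes passed in the same directions (13.6%, against 5.57%). In B16-D-739, *Mest* passed higher and *Plagl1* lower (9.09%, against 3.71%). In B16-D-735, *Plagl1* and *Igf2r* passed, both higher (9.09%, against 5.03%). These 4 comparisons share the B16-M arrays. The median log2 difference of the 22 genes was 0.03 in B16-D, -0.06 in B16-D-733, 0.10 in B16-D-735 and 0.02 in B16-D-739, beside -0.04, 0.03, -0.01 and 0.0030 over all genes tested.

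**Figure D2:**
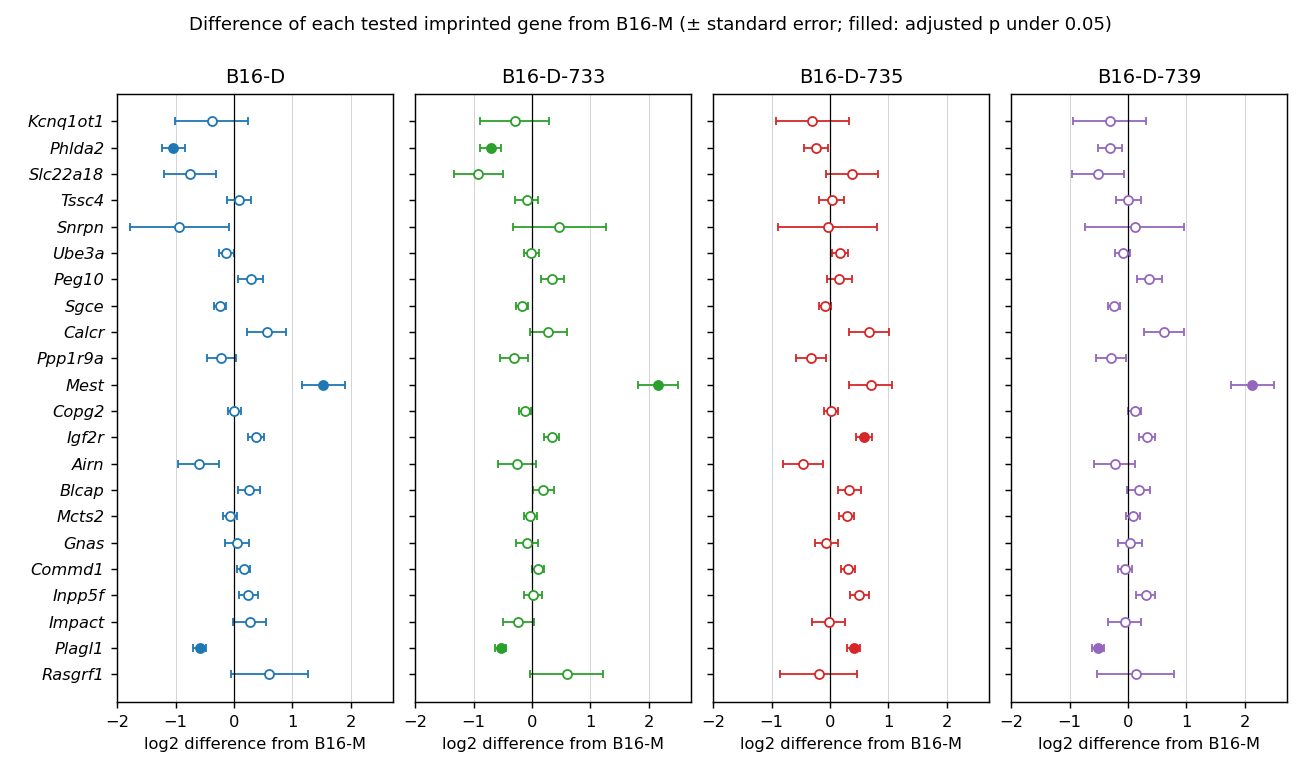
Fitted log2 difference of each of the 22 tested imprinted genes from B16-M (x axis) in the 4 dormant melanoma lines (panels), with its standard error; filled points had an adjusted p under 0.05. *Mest* lies furthest to the right in B16-D, B16-D-733 and B16-D-739, at 1.53, 2.17 and 2.13, and *Plagl1* is left of 0 in these lines and right of it in B16-D-735.

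*Mest*, a paternally expressed gene for a hydrolase of the endoplasmic reticulum, had the largest rise from B16-M among those of the 45 genes called in the dormant melanoma lines. Its levels were -0.28, -0.46 and -0.29 on the B16-M arrays and 0.19, 1.67 and 1.70 on those of B16-D. The 4 B16-D-733 arrays gave 1.26, 2.10, 2.00 and 1.92, and the 3 B16-D-739 arrays 1.33, 1.93 and 2.10. B16-D-735 lay between, at 0.66, 0.00 and 0.38, and none of the 13 dormant arrays reached down to B16-M. The log2 difference from B16-M was 2.17 in B16-D-733 (4.50-fold, standard error 0.34, limma adjusted p = 0.0019) and 2.13 in B16-D-739 (4.39-fold, standard error 0.37, adjusted p = 0.0045). It was 1.53 in B16-D (2.90-fold, standard error 0.37, limma adjusted p = 0.039) and 0.70 in B16-D-735 (standard error 0.37, adjusted p = 0.40). The B16-D call was lost without B16-M replicate 0, 1 or 2 and without B16-D replicate 1 or 3, with limma adjusted p between 0.075 and 0.14, and in 12 of 20 alternatives in all. The B16-D-733 call was lost in 1 of 21, given below with the dates in the titles, and that of B16-D-739 in 0 of 20. The array numbered 0 was the lowest in B16-D, B16-D-733 and B16-D-739 and the highest in B16-D-735. *Mest* was lower in B16-D-735 than in B16-D-733 by a log2 difference of -1.47 (limma adjusted p = 0.018, 2.78-fold), where 9.09% of the 22 genes and 8.56% of all genes passed. B16-D-739 exceeded B16-D-735 by 1.44 (limma adjusted p = 0.033), where the shares were 9.09% and 6.86%. The first of these calls was lost without B16-D-733 replicate 1 or B16-D-735 replicate 1 or 2 (limma adjusted p = 0.054, 0.056 and 0.088), and in 5 of 21 alternatives in all. The other was lost without B16-D-735 replicate 1 or 2 or B16-D-739 replicate 1 or 2 (limma adjusted p = 0.084, 0.13, 0.11 and 0.12), and also with no filter on dim probes (0.063), with the mean of all probes (0.064), in 1 fit of all 23 arrays (0.068) and in a fit of the 2 lines alone (0.058), so that it passed in 12 of 20 alternatives. The second probe of *Mest* differed from B16-M by 1.60 in B16-D, 1.98 in B16-D-733, 0.60 in B16-D-735 and 1.85 in B16-D-739. *Copg2*, which encodes a subunit of the COPI vesicle coat beside *Mest*, stayed between 2.42 and 2.93 on all 16 melanoma arrays and passed in none of the 4 comparisons with B16-M.

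*Plagl1*, a paternally expressed zinc finger transcription factor that restrains proliferation, was lower than B16-M in 3 dormant lines and higher in the fourth. Its levels were 6.68, 6.78 and 6.73 in B16-M. They were 6.26, 5.98 and 6.17 in B16-D, 6.18, 6.24, 6.26 and 6.07 in B16-D-733, and 6.30, 6.27 and 6.08 in B16-D-739. In B16-D-735 they were 7.11, 7.25 and 7.04, and the arrays of this line, of B16-M and of the other dormant lines together formed 3 ranges that did not overlap. The log2 difference from B16-M was -0.59 in B16-D (standard error 0.11, limma adjusted p = 0.0082), -0.54 in B16-D-733 (0.10, adjusted p = 0.0060) and -0.52 in B16-D-739 (0.11, adjusted p = 0.015). B16-D-735 was above B16-M by 0.40 (standard error 0.11, limma adjusted p = 0.048), above B16-D by 1.00 (adjusted p = 7.5e-05) and above B16-D-733 by 0.94 (adjusted p = 7.0e-05). B16-D-739 was below B16-D-735 by a log2 difference of -0.92 (limma adjusted p = 0.00017). *Plagl1* was thus the 1 imprinted gene that passed in the same direction for a single line against each of the other 4, a pattern that 239 of 24310 genes showed for a higher level in B16-D-735 (0.983%) and 2.69% of all genes for any line and direction. The 3 comparisons of B16-D-735 with dormant lines passed in every alternative run, while that with B16-M was lost in 16 of 20, among them the omission of any B16-M or B16-D-735 array, with adjusted p from 0.071 to 0.16 on leaving out 1 array. The call of B16-D-739 against B16-M was lost without B16-M replicate 1 or 2 or B16-D-739 replicate 2, with limma adjusted p between 0.056 and 0.080, and in 9 of 20 alternatives in all. The second probe was dimmer and had means of -0.97 in B16-M, -1.66 in B16-D, -1.85 in B16-D-733, -0.81 in B16-D-735 and -1.56 in B16-D-739.

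**Figure D3:**
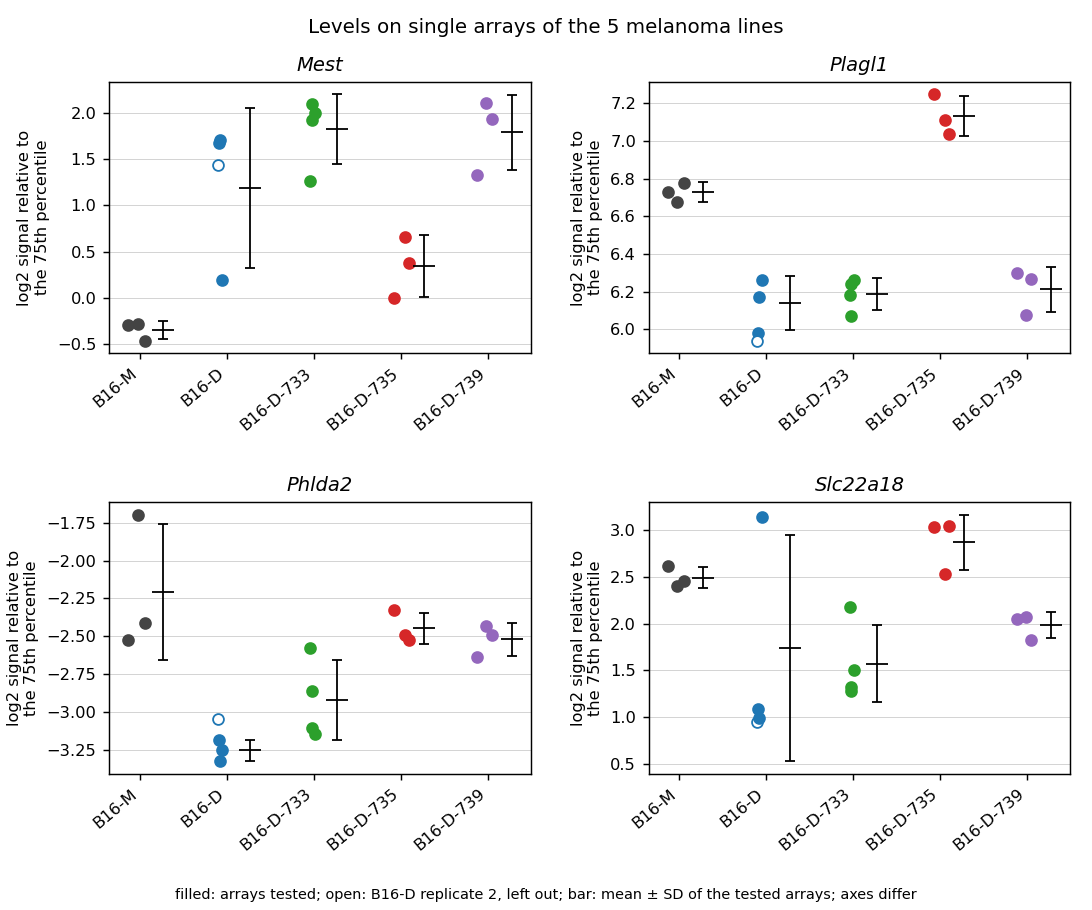
Levels of *Mest*, *Plagl1*, *Phlda2* and *Slc22a18* (log2 signal relative to the 75th percentile) on every array of the 5 melanoma lines, with the mean and SD beside the points; the open point is B16-D replicate 2, which is not in the mean, and the axes differ between panels. *Plagl1* forms 3 separate bands, with B16-D-735 at 7.04 to 7.25 above B16-M, and the *Slc22a18* value of 3.14 in B16-D replicate 0 stands far above the other arrays of its line.

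Among the genes of the Kcnq1 domain, *Phlda2*, a maternally expressed restraint on placental growth, was dim and lower in 2 dormant lines. Its levels were -1.70, -2.41 and -2.52 in B16-M, -3.25, -3.18 and -3.32 in B16-D, and -2.58, -2.86, -3.15 and -3.10 in B16-D-733. The arrays of B16-D-735 (-2.49, -2.33 and -2.52) and B16-D-739 (-2.64, -2.49 and -2.43) overlapped those of B16-M, while both lower lines lay apart from it, B16-D-733 narrowly. The log2 difference from B16-M was -1.04 in B16-D (2.06-fold, standard error 0.20, limma adjusted p = 0.012) and -0.71 in B16-D-733 (1.64-fold, standard error 0.19, adjusted p = 0.043), and B16-D-735 exceeded B16-D by 0.81 (limma adjusted p = 0.026, where 9.09% of the 22 genes and 8% of all genes passed). The B16-D-733 value was -0.67 with the replicate number as a block (limma adjusted p = 0.070), which pairs these lines, and without B16-M replicate 0, whose level of -1.70 was the highest, it was -0.45 (adjusted p = 0.12). Omitting B16-M replicate 1 or B16-D-733 replicate 1, 2 or 3 also ended that call, with limma adjusted p between 0.067 and 0.11, and it was lost in 13 of 21 alternatives in all. The call of B16-D-735 against B16-D was lost without B16-D replicate 1 or 3 or any of the B16-D-735 arrays, with limma adjusted p from 0.057 to 0.11. It was also lost with quantile normalization (0.070), with normexp (0.12), with no filter on dim probes (0.060) and in a fit of the 2 lines alone (0.067, limma adjusted p), and it passed in 9 of 20 alternatives. *Slc22a18*, a membrane transporter of the same domain, had 2.40, 2.45 and 2.62 in B16-M, 3.14, 1.09 and 0.99 in B16-D, 2.18, 1.28, 1.51 and 1.32 in B16-D-733, 2.53, 3.04 and 3.05 in B16-D-735, and 2.05, 1.83 and 2.07 in B16-D-739. Its log2 difference from B16-M was -0.92 in B16-D-733 (standard error 0.42, limma adjusted p = 0.27) with the arrays apart, and no comparison passed. *Tssc4* ranged from 2.54 to 3.32 over the melanoma arrays, and *Kcnq1ot1* from -0.23 to 2.04.

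The receptor IGF2R carries IGF2 and lysosomal enzymes to the lysosome and is expressed from the maternal copy, while the paternal copy makes the antisense RNA *Airn*. *Igf2r* had levels of 2.04, 2.19 and 2.45 in B16-M and 2.88, 2.61 and 2.93 in B16-D-735, a log2 difference of 0.58 (1.49-fold, standard error 0.14, limma adjusted p = 0.030). It was above B16-M by 0.38 in B16-D, 0.34 in B16-D-733 and 0.33 in B16-D-739 (limma adjusted p = 0.18, 0.18 and 0.29), with levels of 2.64, 2.65 and 2.52, then 2.81, 2.44, 2.59 and 2.42, then 2.48, 2.51 and 2.68. The arrays of B16-D-733 alone overlapped those of B16-M. The B16-D-735 call was lost without B16-M replicate 0 or 1 and without B16-D-735 replicate 0 or 1, with limma adjusted p from 0.10 to 0.12, and in 10 of 20 alternatives in all. *Airn* had -0.94, -0.31 and -1.02 in B16-M and -1.22, -0.76 and -1.68 in B16-D-735, and it passed in no comparison of melanoma lines.

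**Figure D4:**
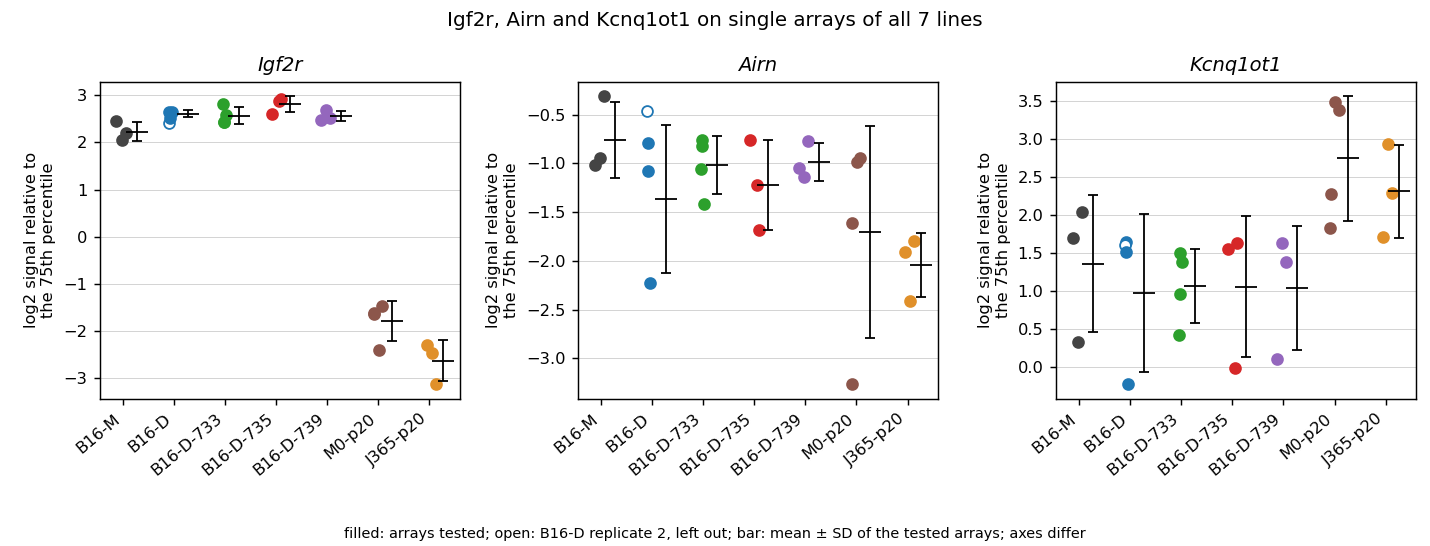
Levels of *Igf2r* and of the noncoding RNAs *Airn* and *Kcnq1ot1* (log2 signal relative to the 75th percentile) on every array of the 7 lines, with the mean and SD beside the points; the open point is B16-D replicate 2, and the axes differ between panels. *Igf2r* lies at 2.04 to 2.93 in the melanoma lines and at -3.13 to -1.48 in the leukemia lines, whereas the ranges of *Airn* overlap between the tumours.

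Within slides, each of which held arrays of several lines, all 27 differences of the called genes in the 4 comparisons with B16-M had the sign of the fit. For each of these calls the arrays of the lines lay apart, so the signs were fixed in advance and are no separate check. For *Mest* the within-slide differences ranged from 1.73 to 2.30 in B16-D-733 and from 1.61 to 2.40 in B16-D-739. The titles of the B16-D and B16-D-733 arrays carry a date except those of replicate 0, and no other titles do. What it marks is not stated, and on those arrays it cannot be told apart from the line. Without the dated arrays, which left 1 array of each of these lines and the spread of the others, none of their calls against B16-M passed in limma. *Mest* was then 1.61 above B16-M in B16-D-733 (limma adjusted p = 0.074) and 0.54 in B16-D (0.38), *Plagl1* was at -0.55 and -0.47 (0.22 and 0.16) and *Phlda2* at -0.37 and -1.04 (0.84 and 0.12). With the date as a term of the fit, 2 of these 6 calls passed, *Mest* in B16-D-733 at 1.35 (limma adjusted p = 0.015) and *Plagl1* in B16-D at -0.54 (adjusted p = 0.042). The lower *Mest* of B16-D-735 against B16-D-733 was -0.92 without the dated arrays and -0.65 with the term (limma adjusted p = 0.32 and 0.23).

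Among the dormant lines, none of the 22 genes passed between B16-D-733 and B16-D (0.481% of all genes did), between B16-D-739 and B16-D (0.309%) or between B16-D-739 and B16-D-733 (0.259%) in limma. At an unadjusted p under 0.05 there were 0, 1 and 0, the 1 being *Phlda2*, higher in B16-D-739 than in B16-D by 0.73 (limma adjusted p = 0.28). Markers of other cell types also differed between these lines. *Dcn*, a matrix proteoglycan of fibroblasts, was at -1.94 ± 1.09 (SD, n = 3) in B16-D-735, above the background on 3 of 3 arrays and on no array of the other melanoma lines, and the sum of the 7 fibroblast markers ran from 0.19 to 0.63 on the log2 scale in B16-D-735 against -1.59 to -0.30 in the others, with *Col3a1* and *Lum* detected in none. Of the other markers of that list, *Col1a1* was detected in B16-D-735 and in no other melanoma line, *Pdgfra* was above the background on 0 of 3 B16-D-735 arrays and 3 of 3 of B16-M (limma adjusted p = 0.11), and *Postn* differed from B16-M by -0.18 (adjusted p = 0.97). *Coro1a*, a leukocyte actin regulator, was lower in B16-D, B16-D-733 and B16-D-739 by log2 differences of -2.16, -1.70 and -1.68. *Itgb2*, the other leukocyte marker tested in these lines, had -4.41, -3.81 and -4.93 in B16-M. Its levels were -5.29, -5.11 and -4.47 in B16-D, -4.68, -4.65, -5.25 and -3.86 in B16-D-733, and -3.97, -3.95 and -3.70 in B16-D-739. The remaining leukocyte markers were too dim to be tested in melanoma. The sum of the 6 neural markers was 2.89 to 3.11 in B16-D-733 and 1.27 to 2.56 in the other melanoma lines. Of these, *Mbp*, a protein of myelin, was higher in B16-D-733 than in B16-M by 2.14 (limma adjusted p = 0.0038), while *Gfap* of astrocytes differed by -0.64 (adjusted p = 0.080) and the neuronal *Rbfox3* was above the background on no melanoma array. The part of these cells in the differences of *Plagl1*, *Mest*, *Phlda2* and *Igf2r* was not tested.

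The remaining 23 imprinted genes were too dim to be tested in melanoma. They passed the background on single arrays at most in some lines, such as *Zrsr1* at -3.45 on B16-D-735 replicate 1 beside -7.28 and -7.30 on the other arrays of that line, *Usp29* at -2.47 on B16-D-733 replicate 3 beside -7.40 to -6.95, and *Dlk1* at -2.56 on B16-M replicate 2 beside -6.94 and -6.88. None of the 45 genes became detected or lost detection in a single melanoma line apart from *Calcr* in B16-D-735, which was above the background on 2 of 3 arrays there and on no B16-M array (limma adjusted p = 0.37).

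For the other genes that bear on imprinting, a list of 28 further imprinted genes was read in the same fit, of which 18 could be tested. In B16-D 0 rose and 2 fell, in B16-D-733 and B16-D-739 2 rose and 2 fell, and in B16-D-735 5 rose and 1 fell, where 3.6%, 5.57%, 3.71% and 5.03% of all genes passed in B16-D, B16-D-733, B16-D-739 and B16-D-735. Their median log2 differences were -0.07, 0.12, 0.08 and 0.25 in that order. *Cdkn1c*, the maternally expressed cell cycle inhibitor p57 of the Kcnq1 domain, had -3.07, -2.92 and -2.80 in B16-M, and -0.04, 0.27 and 0.52 in B16-D-735, a log2 difference of 3.18 (standard error 0.43, limma adjusted p = 0.00055). In the other dormant lines it fell by 1.73 (B16-D), 2.36 (B16-D-733) and 1.84 (B16-D-739) on the log2 scale (limma adjusted p = 0.045, 0.0033 and 0.032), and it was above the background on 1 of 3, 1 of 4 and 2 of 3 of their arrays. *Tspan32*, a tetraspanin of the same domain, fell by 1.22 to 1.49 in all 4 dormant lines (limma adjusted p from 0.00073 to 0.0054). Of this list, *Begain* was detected in every melanoma line but B16-D-735, and *Mkrn3* in every one but B16-D. Detection of *Mirg* in melanoma was limited to B16-D-733. *Begain* was dim, with -4.40, -4.52 and -6.03 in B16-M and -4.98, -5.31 and -5.29 in B16-D-735. Genes that set, keep or remove the methylation of imprints were a list of 15, of which 13 could be tested. Among them were the maintenance methyltransferase *Dnmt1*, its partner *Uhrf1* and the zinc finger genes *Zfp57* and *Zfp445*. The list also held *Tet1*, *Tet2* and *Tet3*, of methylation removal. None of the 13 passed in any of the 4 comparisons in limma, and at an unadjusted p under 0.05 there were 2 in B16-D, 2 in B16-D-733, 4 in B16-D-735 and 3 in B16-D-739, where 16.6%, 17.5%, 16.3% and 14.0% of all genes had such a p. Their median log2 differences were 0.15, 0.05, -0.18 and 0.15. *Zfp57* was above the background on 5 of the 16 melanoma arrays.

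Among 16 genes of the IGF pathway outside the 45, 12 were tested, and the median differences were 0.06 in B16-D, 0.31 in B16-D-733, 0.10 in B16-D-735 and 0.33 in B16-D-739. In B16-D 0 rose and 1 fell, in B16-D-733 3 rose and 1 fell, in B16-D-735 2 rose and 1 fell, and in B16-D-739 1 rose and 0 fell, against the shares of all genes just given (3.6%, 5.57%, 5.03% and 3.71%). *Igf2bp3*, an RNA-binding protein that binds *Igf2* messenger RNA, rose by 1.75 in B16-D-733, 2.33 in B16-D-735 and 1.00 in B16-D-739 (limma adjusted p = 1.2e-06, 2.4e-07 and 0.00050). *Igf2bp1* of the same list went the other way in B16-D-735, with 1.28, 1.35 and 1.61 in B16-M and 0.28, -0.05 and 0.39 in B16-D-735. *Igfbp6*, a secreted protein that binds IGF2, fell by 1.73 in B16-D and 1.34 in B16-D-733 (limma adjusted p = 0.017 and 0.032).

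Between the leukemia lines, 18 of the 45 imprinted genes could be tested, over 7 arrays and 22967 genes. In limma none passed, while 1.07% of all genes did, and 3 had an unadjusted p under 0.05, as did 6.89% of all genes. *Ascl2*, a transcription factor of trophoblast and intestinal stem cells, had -4.42, -3.89, -3.67 and -3.13 in M0-p20 and -5.11, -4.67 and -4.59 in J365-p20. The log2 difference of *Ascl2* was -1.01 and not past the threshold (limma adjusted p = 0.43). It was above the background on 4 of 4 M0-p20 and 0 of 3 J365-p20 arrays, and the lowest M0-p20 array lay above the highest of J365-p20. *Impact*, an inhibitor of the kinase GCN2, differed by 0.56 (standard error 0.18, limma adjusted p = 0.49), with -1.07, -0.69, -1.20 and -0.73 in M0-p20 and -0.34, -0.45 and -0.30 in J365-p20. *Igf2r* differed by -0.85 (standard error 0.30, limma adjusted p = 0.54), with -2.40, -1.62, -1.64 and -1.48 against -3.13, -2.30 and -2.46, and its arrays overlapped. The other 15 differences lay between -0.94 (*Meg3*) and 0.16 (*Ube3a*). The 18 genes had a median of -0.04, beside -0.02 over all genes. Of the other imprinted genes, *Ddc*, the aromatic amino acid decarboxylase, was the 1 of 19 tested that passed (1.07% of all genes did), with levels of -0.77 to 0.95 in M0-p20 and -7.36 to -6.90 in J365-p20, where it was above the background on no array. In the list of genes that set, keep or remove imprints 0 of 13 passed in limma, with 1 at an unadjusted p under 0.05.

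The dormancy change itself was compared between the tumours, as B16-D minus B16-M less J365-p20 minus M0-p20, in a fit of 23 arrays. Of 29 imprinted genes tested, 1 passed (3.45%, against 2.28% of 26757 genes). This was *Igf2r*, with a difference of 1.22 on the log2 scale (standard error 0.30, limma adjusted p = 0.038), made of the 0.38 in melanoma and the -0.85 in leukemia given above, neither of which passed alone. The call was lost in 14 of 25 alternatives, and on leaving out 1 array the difference ran from 0.98 without J365-p20 replicate 0 (limma adjusted p = 0.11) to 1.43 without M0-p20 replicate 0 (adjusted p = 0.0025). Omission of B16-M replicate 0 or 1, of B16-D replicate 0, 1 or 3 or of M0-p20 replicate 1, 2 or 3 ended it too, with limma adjusted p from 0.061 to 0.11.

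The parental lines of the tumours differed far more. In limma, 21 of the 29 imprinted genes tested passed between M0-p20 and B16-M (72.4%, against 56.2% of all genes), 8 higher in the leukemia and 13 lower, where 31% and 25.2% of all genes were higher and lower. Their median log2 difference was -0.53, beside 0.19 over all genes. Where a gene was above the background on no array of a line, its difference is given as a bound. This is the mean of the brighter line over the lowest signal that counts as above background in the dimmer line. On arrays of the dimmer line where the gene's own signal was higher than that lowest signal, its own signal was used.

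**Figure D5:**
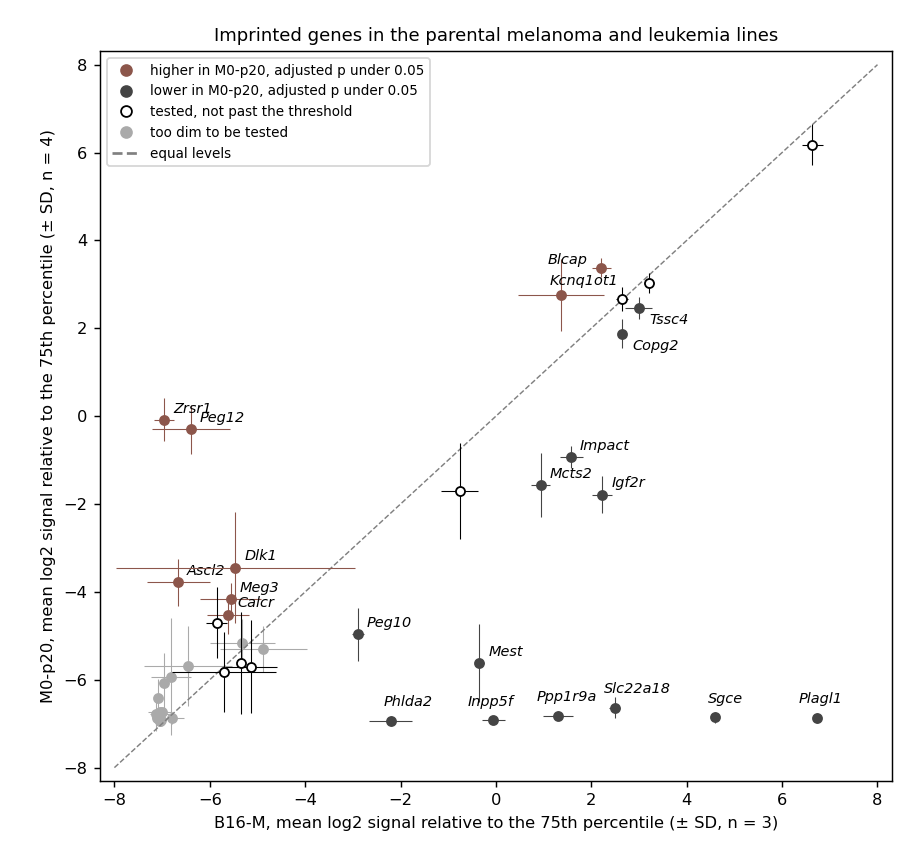
Mean level of the 45 imprinted genes in B16-M (x axis) and M0-p20 (y axis), as log2 signal relative to the 75th percentile with SD; filled dark points had an adjusted p under 0.05 and are named, and the dashed line marks equal levels. The row along the bottom, from *Phlda2* at -2.21 to *Plagl1* at 6.73 in B16-M, holds genes near -7 in M0-p20, and *Zrsr1* and *Peg12* stand alone at the upper left.

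*Plagl1* was at least 2692-fold lower in M0-p20 (limma adjusted p = 2.0e-23), with -6.87, -6.71, -6.94 and -6.95 there. This bound holds for the brightest probe alone, since the second was above the background on 4 of 4 M0-p20 arrays and differed by -1.21. *Sgce*, epsilon-sarcoglycan of the dystrophin complex, was at least 615-fold lower, with 4.52, 4.64 and 4.64 in B16-M and -6.84, -6.69, -6.91 and -7.00 in M0-p20 (limma adjusted p = 1.2e-22). Its second probe was also above the background on all 3 B16-M arrays and no M0-p20 array. *Slc22a18* was at least 143-fold lower by its brightest probe (limma adjusted p = 3.4e-14), with -6.77, -6.30, -6.81 and -6.67 in M0-p20, but its second probe was above the background on 3 of those 4 arrays and differed by -2.66.

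*Ppp1r9a*, which encodes the actin-binding protein neurabin, had 1.04, 1.23 and 1.65 in B16-M and -6.86, -6.67, -6.91 and -6.83 in M0-p20, at least 62.8-fold lower (limma adjusted p = 7.8e-17). *Inpp5f*, an inositol phosphatase, had 0.19, -0.29 and -0.07 in B16-M and -6.93, -6.82, -6.94 and -7.02 in M0-p20, at least 24.4-fold lower (limma adjusted p = 4.3e-18). *Phlda2*, at -6.91, -6.80, -6.95 and -7.07 in M0-p20, was at least 5.48-fold lower (limma adjusted p = 1.3e-14). These 3 genes were above the background on no array of either leukemia line. *Mest* had -5.40, -6.84, -5.50 and -4.71 in M0-p20, above the background on 1 of 4 arrays, with a fitted log2 difference of -5.27 (standard error 0.41). *Peg10*, derived from a retrotransposon and needed for the placenta, had a mean of -2.90 ± 0.12 (SD, n = 3) in B16-M and -4.22, -4.91, -5.70 and -5.04 in M0-p20, a log2 difference of -2.07 (standard error 0.30), and its second probe was above the background on 2 of 4 M0-p20 arrays and differed by -1.54.

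Genes measured in both tumours and lower in M0-p20 were *Igf2r*, by a log2 difference of -4.01 (standard error 0.21, limma adjusted p = 2.4e-12, 16.1-fold), and *Mcts2* and *Impact*, by -2.51 and -2.50. *Mcts2* had 1.14, 0.74 and 0.95 in B16-M and -1.12, -2.61, -0.99 and -1.57 in M0-p20, and *Impact* had 1.43, 1.44 and 1.85 in B16-M. *Mcts2* is a retrogene, and whether its probe also reads the gene it was copied from was not tested. *Copg2* differed by -0.77, with 2.66, 2.55 and 2.73 in B16-M and 1.43, 2.24, 1.87 and 1.96 in M0-p20. *Tssc4*, a splicing factor, differed by -0.53, with 2.81, 2.86 and 3.32 against 2.64, 2.72, 2.22 and 2.26. This last call was lost without B16-M replicate 2 or M0-p20 replicate 2 or 3, with limma adjusted p of 0.15, 0.073 and 0.068, and in 4 of 20 alternatives in all.

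Of the 8 genes higher in M0-p20, *Zrsr1* and *Peg12* had the largest bounds. *Zrsr1*, a splicing factor retrogene in an intron of *Commd1*, had -6.73, -7.07 and -7.09 in B16-M and -0.71, 0.45, 0.08 and -0.16 in M0-p20, at least 28.2-fold higher (limma adjusted p = 1.3e-08). Its host gene *Commd1* had a mean of 3.21 ± 0.10 (SD, n = 3) in B16-M and 3.03 ± 0.23 (SD, n = 4) in M0-p20 and did not pass (limma adjusted p = 0.23). *Peg12*, a FRAT family gene of Wnt signalling at the edge of the Snrpn-Ube3a domain, had -5.71, -7.30 and -6.18 in B16-M and 0.22, -0.20, -0.14 and -1.08 in M0-p20, at least 24.3-fold higher (limma adjusted p = 4.4e-12). Of the paternally expressed genes of that domain among the 45, *Peg12* alone was detected in any line, while *Ndn*, *Magel2* and *Snrpn* were detected in none. *Mkrn3*, from the list of further imprinted genes, was not counted here. It was detected in M0-p20 and in every melanoma line but B16-D. *Zrsr1* and *Peg12* kept these levels in J365-p20, at -0.49, 0.05 and 0.02 and at -0.07, -0.27 and -0.45.

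*Ascl2* was at least 2.18-fold higher in M0-p20 than in B16-M (limma adjusted p = 2.9e-06), where it had -6.94, -5.91 and -7.13. *Blcap*, a small membrane protein gene, had 2.39, 2.00 and 2.24 in B16-M and 3.13, 3.63, 3.45 and 3.32 in M0-p20, a log2 difference of 1.17 (2.25-fold, standard error 0.17, limma adjusted p = 1.1e-05). *Calcr* was above the background on 2 of 4 M0-p20 arrays (-4.54, -4.27, -5.12 and -4.15) and on none of B16-M (-5.54, -6.08 and -5.21), at least 1.30-fold higher (limma adjusted p = 0.0056), a call lost in 2 of 19 alternatives. *Kcnq1ot1* had 0.34, 2.04 and 1.70 in B16-M and 3.49, 1.84, 2.28 and 3.39 in M0-p20, a difference of 1.39 with overlapping arrays (limma adjusted p = 0.0497). Without B16-M replicate 0 it was 0.88 (limma adjusted p = 0.27), and omitting B16-M replicate 2 or M0-p20 replicate 0 or 3 ended the call as well (adjusted p = 0.061, 0.13 and 0.13), with 13 of 20 alternatives ending it in all.

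Of the 4 genes of the Dlk1-Dio3 domain among the 45, *Dlk1* and *Meg3* were detected, weakly, *Dlk1* in both leukemia lines and *Meg3* in M0-p20. *Mirg*, a noncoding RNA of this domain from the list of further imprinted genes, was above the background on 2 of 4 B16-D-733 arrays, 1 of 3 B16-D-735 arrays and no leukemia array. *Dlk1*, a Notch-like membrane protein of the paternal copy, had -2.47, -5.23, -3.46 and -2.64 in M0-p20, above the background on 3 of 4 arrays, and -3.85, -4.07 and -5.06 in J365-p20, on 2 of 3. Its log2 difference from B16-M was 2.01 (standard error 0.80, limma adjusted p = 0.038), and on slide 1 the difference had the opposite sign, -2.67. Without B16-M replicate 0 or 1 or M0-p20 replicate 0, 2 or 3 it was between 1.27 and 2.02 with limma adjusted p from 0.061 to 0.23, and the call was lost in 11 of 19 alternatives in all. The second probe of *Dlk1* went the other way, with a difference of -0.34. That probe was above the background on 1 of 4 M0-p20 arrays and on no B16-M or J365-p20 array. *Meg3*, the noncoding RNA of the maternal copy, had -4.68, -3.94, -3.88 and -4.15 in M0-p20, on 3 of 4 arrays above the background, and -5.75, -4.85 and -6.09 in B16-M, at least 1.58-fold higher (limma adjusted p = 0.040). Its call was lost without B16-M replicate 0 or 2 or M0-p20 replicate 1, 2 or 3, with limma adjusted p between 0.066 and 0.15, and in 11 of 19 alternatives in all. *Rtl1* and *Dio3* of this domain were detected in no line.

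Of the genes that set, keep or remove imprints, 9 of 13 were higher and 1 lower in M0-p20 than in B16-M (limma), where 31% and 25.2% of all genes were higher and lower, with a median log2 difference of 0.88 beside 0.19 over all genes. The 13 include genes of methylation removal. Of these, *Tet1* had -2.51, -1.74 and -1.81 in B16-M and -0.32, 0.58, 0.47 and 0.55 in M0-p20. *Tet2* had -0.04, 0.23 and 0.45 against 1.59, 2.08, 1.96 and 2.54. *Dnmt3l*, a cofactor of the de novo methyltransferases, was above the background on no B16-M array and at least 27.1-fold higher in M0-p20 (limma adjusted p = 2.8e-10). *Zfp57* was above the background on 1 of 3 B16-M arrays and 3 of 4 M0-p20 arrays and differed by 2.80. *Dnmt3b* differed by 2.21, while *Uhrf1* differed by -0.98 and *Dnmt1* by 0.27 (limma adjusted p = 0.22). Among the 21 further imprinted genes tested, 8 were higher and 9 lower against the same shares, *Tspan32* by 5.89 and *Cd81* by -4.88.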

How the data were processed

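RNA of 24 samples was read on Agilent mouse arrays of 1 colour (Cy3). The deposited intensity values are those that Agilent Feature Extraction 10.7.3.1 wrote after subtracting the local background, per the file headers, with no scaling between arrays, and the table of processed values held the same numbers on all 24 arrays. The spots numbered 59305 per array besides 3671 controls, 2468 spots marked as outliers over all arrays were left out, and 0 were saturated. Precision is limited by the number of arrays per line.

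Each signal was divided by the 75th percentile of its array and expressed as log2, spots of a probe were averaged, and a gene was read from its brightest probe. A gene was tested if above background on at least 3 arrays of the fit. Tests were made with limma 3.58.1 in R 4.3.3, with 1 fit of 16 melanoma arrays, 1 of 7 leukemia arrays and 1 of 23 arrays for comparisons across the tumours, and with Benjamini-Hochberg adjustment over all genes of the fit. The scripts were tested on simulated data. Values on single arrays are given mainly for genes that passed in a comparison with the arrays of the lines apart, or that were detected in a single melanoma line or in 1 tumour model, and further genes were added after their values were seen. For some of these genes, such as *Rasgrf1* and *Peg10*, only part of the lines or only a mean is given. The 45 genes and all lists were chosen with earlier results of these data known. Melanoma arrays that carry the same number in their titles deviated together in B16-D-733 and B16-M (correlations 0.52, 0.28 and 0.78) and in B16-D-739 and B16-M (0.69, 0.52 and 0.78), so these pairs of lines were also fitted with the number as a block. In B16-D-739 and B16-M every shared number was also a shared slide. In B16-D-733 and B16-M this held for number 2 alone. Number and slide cannot be told apart on those arrays. The mean signal was not used here, and the alternative with normexp (offset 50) started from the median signal. Alternatives varied normalization, background, filter, probe, block, samples and single arrays.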

Additional observations from a re-analysis of the deposited data

Results flagged for a closer look

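Among 37 gene and line groups of 4 arrays, 2 held an array far from the other 3, where chance gives about 1 in 20. These were *Ppp1r9a* at 1.39 on B16-D-733 replicate 2, beside 0.89, 0.84 and 0.86, and *Rasgrf1* at -5.91 on M0-p20 replicate 2, beside -4.41, -4.32 and -4.15.

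The change of *Igf2r* from the parental to the dormant line differed between melanoma and leukemia by 1.22 on the log2 scale (limma adjusted p = 0.038). *Igf2r* was higher in the 3 B16-D arrays than in the 3 of B16-M, and the arrays of J365-p20 and M0-p20 overlapped.

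On B16-D replicate 2, which entered no comparison, 16 imprinted genes were above the background that the other 3 arrays of the line did not detect. The share of all its spots above the background was also higher than on any other array.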

How the results depend on the processing

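No called gene changed its sign under any alternative run. The counts of imprinted genes called were as follows, with those of single omitted arrays as a range. B16-D against B16-M had 3, or 0 in a fit of the 2 lines alone, 0 without the dated arrays, 1 with the date as a term (both alternatives chosen after seeing the data) and 2 to 5 without 1 array. B16-D-733 had 3, or 0 without the dated arrays, 1 with the date as a term, and 2 to 3 without 1 array. B16-D-735 had 2, or 1 with B16-D replicate 2, 1 with quantile normalization, 0 with normexp, 0 with no filter on dim probes, 1 with the mean of all probes, 0 without the arrays numbered 0 (an alternative chosen after seeing the data), 0 without the dated arrays, 0 in 1 fit of all 23 arrays, 0 in a fit of the 2 lines alone and 0 to 1 without 1 array. B16-D-739 had 2, or 1 with normexp, with no filter, with the mean of all probes, without the arrays numbered 0, without the dated arrays and in a fit of the 2 lines alone, and 1 to 2 without 1 array. J365-p20 against M0-p20 had 0, or 1 in the fit of all 23 arrays, and 0 without any 1 array. M0-p20 against B16-M had 21, and 18 to 21 without 1 array. The difference between the tumours had 1, or 0 with normexp, with no filter, with the replicate block and without the dated arrays, 2 without the arrays numbered 0, and 0 to 2 without 1 array. The single-line call of *Plagl1* was 1, or 0 with B16-D replicate 2, quantile normalization, normexp, no filter, the mean of all probes, the replicate block, without the arrays numbered 0, without the dated arrays and in the fit of all 23 arrays, and 0 to 1 without 1 array. The causes were not tested. By the scanner's weaker mark of a positive and significant signal, 29 imprinted genes were detected in B16-M, 30 in B16-D, 32 in B16-D-733, 33 in B16-D-735, 32 in B16-D-739, 29 in M0-p20 and 28 in J365-p20. By the main mark, the counts were 19 in B16-M, B16-D, B16-D-733 and B16-D-739, 20 in B16-D-735, 18 in M0-p20 and 16 in J365-p20. Without 1 array these main counts ran from 20 to 21 in B16-M, 20 to 21 in B16-D, 19 to 19 in B16-D-733, 21 to 24 in B16-D-735, 20 to 22 in B16-D-739, 17 to 18 in M0-p20 and 18 to 19 in J365-p20. In lines of 3 arrays, leaving out 1 loosens the rule, since 1 of the 2 arrays left then meets the 50%.

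The numbers of the arrays did not pair B16-D with B16-M (correlations 0.26 and 0.04), B16-D-735 with B16-M (0.75, -0.28 and -0.31) or J365-p20 with M0-p20 (0.44, -0.03 and 0.14). With the replicate block, limma's adjusted p was 0.054 for *Mest* in B16-D, 0.069 for *Plagl1* in B16-D-735, 0.055 for the *Igf2r* difference between the tumours, 0.061 for *Meg3* and 0.051 for *Kcnq1ot1* in M0-p20. Dim genes such as *Calcr*, *Dlk1* and *Meg3* lay near the background, where detection can turn on 1 array. *Phlda2* was also dim but was above the background on every melanoma array.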

Other observations

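The aromatic amino acid decarboxylase *Ddc* and the tetraspanin *Tspan32*, imprinted genes outside the 45, changed differently with dormancy in melanoma and leukemia. *Ddc* was higher in B16-D than in B16-M by 0.56 on the log2 scale (limma adjusted p = 0.28) and was at least 35.5-fold lower in J365-p20, where it was above the background on no array, than in M0-p20 (limma adjusted p = 0.00010). The difference between these changes passed (limma adjusted p = 2.0e-09). For *Tspan32* the difference was -1.87 (limma adjusted p = 0.0013). Of the 21 further imprinted genes tested for this difference, 2 passed higher and 1 lower, where 2.28% of all genes passed. *Begain* of that list had -4.40, -4.52 and -6.03 in B16-M and -3.69, -4.14 and -3.93 in B16-D. It had -0.49, -0.28, -0.72 and -0.58 in M0-p20 and -1.47, -1.53 and -1.10 in J365-p20.

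The 5 melanoma arrays numbered 0 had *Kcnq1ot1* levels between -0.23 and 0.43, all below the 11 other melanoma arrays (0.96 to 2.04). No other imprinted gene of the 22 tested had this pattern, which 4.63% of the 24310 genes tested showed, while 0.346% had the arrays numbered 0 above all others.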
